A study of Mus musculus with 6 samples.

Results

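The 9 receptors described here steer the movement of T cells. They are the graft-homing chemokine receptors Cxcr3, Cxcr6, Ccr4 and Ccr2, the lymphoid positioning receptors Ccr7, Cxcr4 and Gpr183, and the sphingosine-1-phosphate receptors S1pr1 and S1pr4. They were chosen by name, and every probe carrying a RefSeq accession of one of them was taken, which gave 13 of the 55371 probes used and 9 of 44781 genes or deposited target names. Their RNA was read on 6 Agilent mouse arrays with 1 dye, 2 per group from independent experiments, called array 1 and array 2 (the one labelled as the repeat). All cells were CD45.2+ CD4+ TEa cells on a C57BL/6 background, sorted from the spleen of heart transplant recipients. Irf4 KO blockade denotes Irf4-/- TEa cells from recipients injected intraperitoneally on days 0, 3 and 5 with 200 µg anti-PD-L1 and 200 µg anti-CTLA-4 (clone 9D9). Irf4 KO IgG denotes Irf4-/- TEa cells from recipients given 400 µg rat IgG on the same days. WT IgG denotes wild-type TEa cells from recipients labelled as treated with rat IgG, for which no dose is stated.

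In every group 5000000 cells were transferred on day -1 into B6.SJL CD45.1+ mice, a Balb/c heart was grafted on day 0, and the cells were recovered on day 6. TEa cells carry 1 transgenic T cell receptor (Vα2+Vβ6+), so the arrays describe T cells of a single specificity. They describe spleen cells, not cells taken from the graft or from lymph nodes. Whether recipients were pooled for an array is not given in the sources used here.

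Chemokine receptors are G protein-coupled receptors that make a cell move up a gradient of their ligand. Effector T cells usually lose receptors that hold them in lymphoid tissue and gain receptors for ligands made in inflamed tissue, including allografts. Sphingosine-1-phosphate, abundant in blood and lymph, draws T cells out of lymphoid organs, while oxysterols guide cells within them. Irf4, which T cell receptor signals induce, is a transcription factor needed for effector differentiation.

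The T cell label was checked first. All 11 measured T cell identity genes, Cd3e and Cd4 among them, were well above background on every array by the scanner software's own call, and 0 of the 11 passed limma's test in any comparison, with 1 to 3 of them at an unadjusted p under 0.05. The targeted gene, Irf4, gave 2071 and 1703 intensity units on Irf4 KO blockade arrays and 2128 and 3073 on Irf4 KO IgG arrays, against 673 and 1068 on WT IgG arrays. Its signal was thus higher on the arrays labelled Irf4 KO, by 1.43 on the log2 scale for Irf4 KO IgG over WT IgG (limma, adjusted p = 0.0175), and by 0.39 (adjusted p = 0.208) in the all-gene fit described below. Where its probes lie relative to the deletion is not given in the sources used here, so this gene does not check the genotype labels, and the groups are named as labelled.

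The Irf4 KO IgG arrays stand apart. Of the probes, 40.0% and 34.8% were well above background on Irf4 KO blockade arrays and 65.8% and 75.2% on Irf4 KO IgG arrays, against 37.6% and 40.8% on WT IgG arrays. Weak probes thus gave more signal in Irf4 KO IgG samples, and fold changes depend on how the arrays are scaled. The 75th percentile of intensity was 95.6 and 68.0 on Irf4 KO blockade arrays. It was 185 and 301 on Irf4 KO IgG arrays and 88.6 and 119 on WT IgG arrays. Unscaled intensities given below are not corrected for such differences between arrays. The bright-gene fit used 8582 genes whose log2 intensity averaged 8 or more, quantile-normalised. It holds 5 of the 9 receptors: Cxcr3, Ccr7, Gpr183, S1pr1 and S1pr4. Cxcr6 and Cxcr4, with means of 7.83 and 7.91, lay just under that minimum. They are given in a wider bright-gene fit with a minimum of 7 (10656 genes), beside the all-gene fit scaled to each array's 75th percentile (28249 genes), which is the only one that also holds the dim Ccr4 and Ccr2. The all-gene fit holds genes with a probe well above background on both arrays of a group, whichever group that was. A gene could thus enter through a single group, and most probes were well above background on the Irf4 KO IgG arrays. Shares of genes given for that fit are of the genes it holds. On the all-gene scale the median of the bright genes was itself shifted by -1.05 for Irf4 KO IgG over WT IgG, by 1.09 for Irf4 KO blockade over Irf4 KO IgG and by 0.05 for Irf4 KO blockade over WT IgG.

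**Figure D1:**
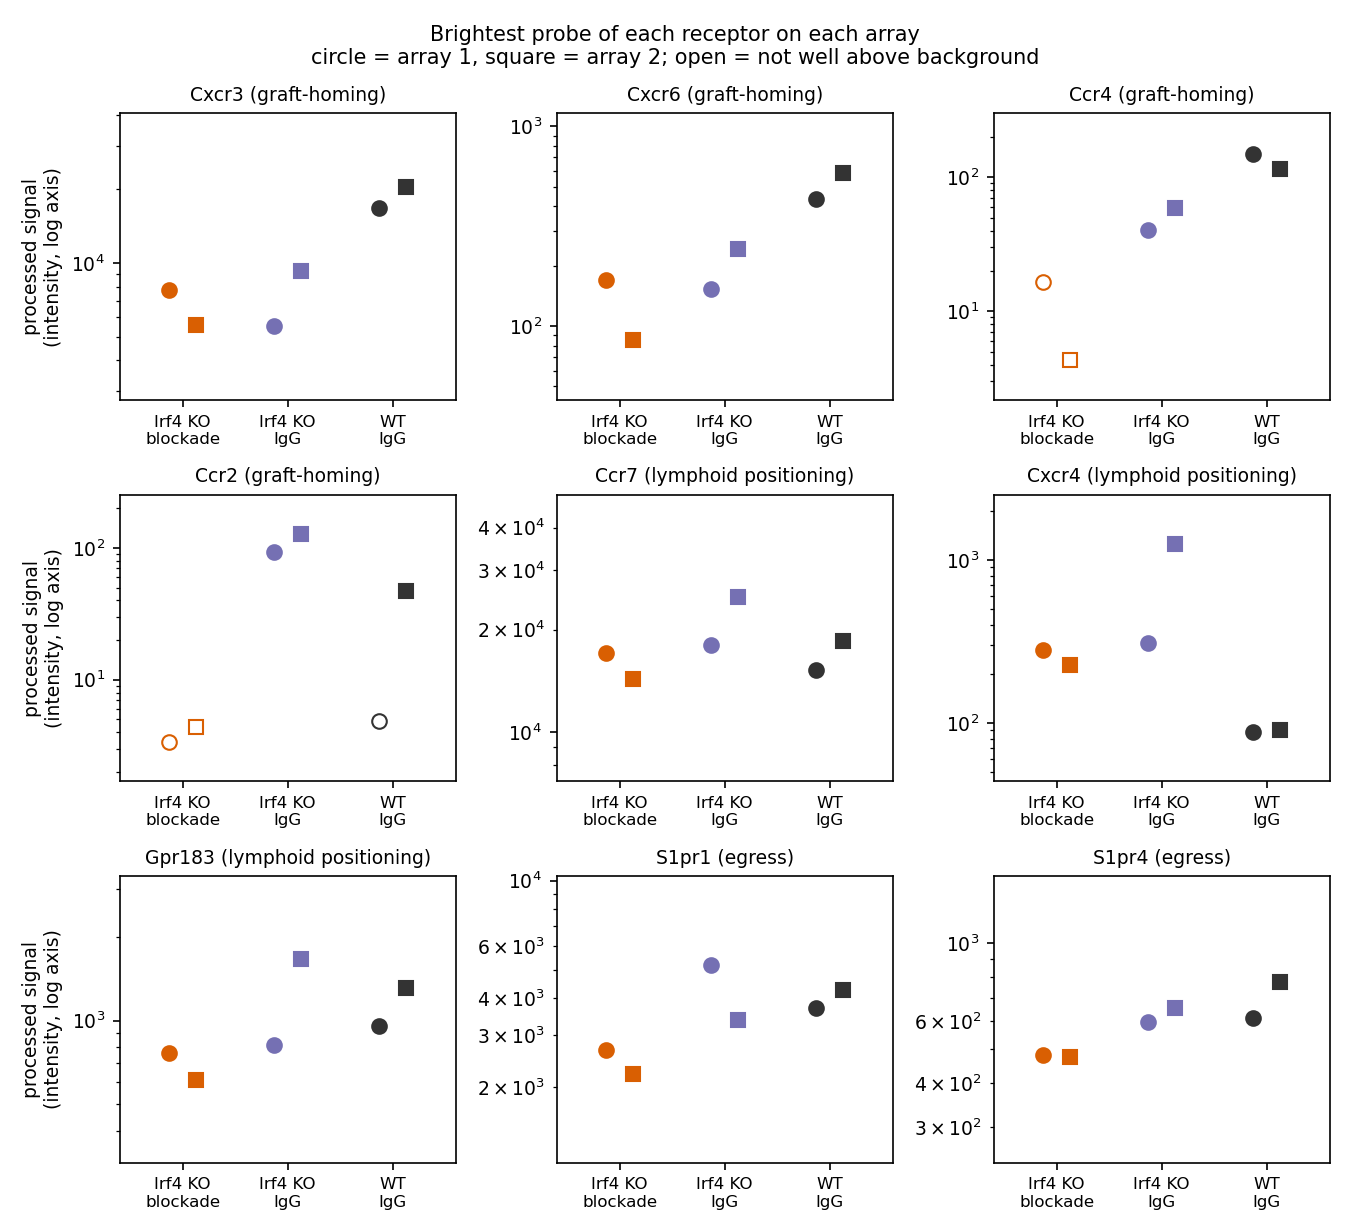
Processed signal of the brightest probe of each receptor on the 6 arrays, on a log intensity axis scaled for each gene. Circles are array 1 and squares array 2, filled where the probe was well above background. Cxcr3, Cxcr6 and Ccr4 were lower on all 4 Irf4 KO arrays than on both WT IgG arrays, whereas Cxcr4 was higher on all 4, and Ccr7 overlapped between Irf4 KO blockade and WT IgG.

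In the bright-gene fit, 0 receptors were higher and 1 of 5, Cxcr3, was lower in Irf4 KO IgG than in WT IgG cells (limma, adjusted p under 0.05), where 1.86% of all genes tested passed and 0.722% were lower. Likewise 1 of 5, again Cxcr3, was lower in Irf4 KO blockade than in WT IgG cells, where 1.11% passed and 0.478% were lower. Both comparisons share the WT IgG arrays. None of the 5 passed between Irf4 KO blockade and Irf4 KO IgG cells, where 0.326% of genes passed, and 1 of the 5 had an unadjusted p under 0.05. The median log2 fold change of the 5 receptors was -0.18 for Irf4 KO IgG over WT IgG, against -0.02 for all genes, and -0.37 for Irf4 KO blockade over WT IgG, against 0.0036 for all genes. It was -0.19 for Irf4 KO blockade over Irf4 KO IgG, against 0.03 for all genes.

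Cxcr3, the receptor for the interferon-induced chemokines Cxcl9, Cxcl10 and Cxcl11, gave 7743 and 5564 intensity units on Irf4 KO blockade arrays and 5517 and 9225 on Irf4 KO IgG arrays, against 16780 and 20371 on WT IgG arrays. All 4 Irf4 KO arrays lay below both WT IgG arrays on this unscaled signal, and the 2 Irf4 KO groups overlapped. After normalisation the log2 level was 12.87 ± 0.13 in Irf4 KO blockade and 12.72 ± 0.07 in Irf4 KO IgG cells, against 14.03 ± 0.0042 in WT IgG cells (SD, n = 2 each). Cxcr3 fell in Irf4 KO IgG cells by 1.31 relative to WT IgG (log2, SE 0.12, limma, adjusted p = 0.0181). For Irf4 KO blockade over WT IgG it was also lower, at -1.17 on that scale (SE 0.12, adjusted p = 0.0245 by limma). Between Irf4 KO blockade and Irf4 KO IgG the log2 difference was 0.14, with a 95% interval of -0.16 to 0.45 (limma, adjusted p = 0.467). On the all-gene scale that comparison gave 1.43 (adjusted p = 0.00852), beside the bright-gene shift of 1.09 named above. Irf4 KO IgG over WT IgG was -2.57 there (adjusted p = 0.00563), and Irf4 KO blockade over WT IgG, at -1.14, was no longer called (limma, adjusted p = 0.313, and 0.306 when all genes were scaled to the median of detected probes).

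The arrays lay in 2 rows of 1 slide, and each row held 1 array of each group. Within the rows the log2 difference of Cxcr3 was -1.26 and -1.36 for Irf4 KO IgG over WT IgG, and -1.07 and -1.27 for Irf4 KO blockade over WT IgG. With the row as a block the adjusted p was 0.0409 in the Irf4 KO IgG comparison and 0.0522 in the blockade comparison (limma). The size moved little when any 1 array was left out, between -1.38 and -1.28 for Irf4 KO IgG over WT IgG and between -1.25 and -1.07 for Irf4 KO blockade over WT IgG, but the adjusted p then ranged from 0.0459 to 0.112 and from 0.0352 to 0.229. Among these reduced fits the first call held only where Irf4 KO IgG array 2 was the array left out, and the second only where it was Irf4 KO IgG array 1 or array 2.

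Cxcr6, the receptor for Cxcl16, marks tissue-resident and effector T cells. Its brighter probe gave 171 and 85.6 intensity units on Irf4 KO blockade arrays and 154 and 244 on Irf4 KO IgG arrays, against 435 and 581 on WT IgG arrays. A second probe gave 124 and 75.4 on Irf4 KO blockade arrays and 98.7 and 156 on Irf4 KO IgG arrays, against 329 and 408 on WT IgG arrays. Both probes were lower on all 4 Irf4 KO arrays than on either WT IgG array. In the wider bright-gene fit Cxcr6 fell in Irf4 KO IgG cells by 1.93 relative to WT IgG (log2, SE 0.18, limma, adjusted p = 0.0189) and was lower in Irf4 KO blockade than in WT IgG cells, at -1.62 (SE 0.18, limma, adjusted p = 0.0392). Cxcr3 and Cxcr6 were the 2 receptors of 7 called lower in each of these comparisons in that fit, where 1.03% of genes were called lower for Irf4 KO IgG over WT IgG and 0.216% for Irf4 KO blockade over WT IgG. Between the Irf4 KO groups 0 of the 7 passed and 0.591% of genes did (limma; 1 of the 7 had an unadjusted p under 0.05). On the all-gene scale the same differences were -2.58 (adjusted p = 0.00563) and -1.71 (adjusted p = 0.244).

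Within the slide rows the wider-fit difference of Cxcr6 was -1.85 and -2.01 for Irf4 KO IgG over WT IgG, and -1.36 and -1.88 for Irf4 KO blockade over WT IgG. Irf4 KO blockade over Irf4 KO IgG was 0.31, with a 95% interval of -0.15 to 0.78 (limma, adjusted p = 0.309), whereas on the all-gene scale it was 0.87 (adjusted p = 0.0380), less than the bright-gene shift of 1.09, and with 1 array left out it was called only where that was blockade array 2. Without 1 of the blockade or WT IgG arrays the wider fit no longer called the first difference (limma, adjusted p of 0.0546 and 0.0543 without blockade array 1 or 2, and of 0.131 and 0.103 without WT IgG array 1 or 2). Among the fits with 1 array left out, the blockade difference was called only in that lacking Irf4 KO IgG array 1 (limma, adjusted p = 0.0492).

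Ccr4 binds Ccl17 and Ccl22 and is known on T helper type 2, regulatory and skin-homing T cells. Its brighter probe gave 16.4 and 4.36 intensity units on Irf4 KO blockade arrays, neither well above background, and 40.5 and 58.8 on Irf4 KO IgG arrays, against 150 and 116 on WT IgG arrays. The other probe gave 3.25 and 4.29 on Irf4 KO blockade arrays and 3.98 and 6.16 on Irf4 KO IgG arrays, none well above background, against 107 and 76.5 on WT IgG arrays. Both WT IgG arrays were above all 4 Irf4 KO arrays with either probe, although weak probes as a whole gave more signal in Irf4 KO IgG samples. In the all-gene fit the brighter probe was lower in Irf4 KO IgG than in WT IgG cells, at -2.63 (log2, SE 0.55, limma, adjusted p = 0.0151), in a comparison where 58.9% of the genes in that fit passed and 27.4% were lower. That call was lost without Irf4 KO IgG array 1 (adjusted p = 0.0538), without Irf4 KO IgG array 2 (0.0648) and without WT IgG array 1 (0.0644, limma).

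Where a probe was not well above background on either array of a group, the fold is a bound, set against the lowest signal counted as well above background on that array or the probe's own signal if higher, on the all-gene scale. By that bound the other Ccr4 probe was at least 11.5-fold lower in Irf4 KO IgG and at least 4.07-fold lower in Irf4 KO blockade than in WT IgG cells, and was not tested by itself. On unscaled intensity the same bounds were 4.99-fold and 5.19-fold, so their order depended on the scaling. For the brighter probe Irf4 KO blockade was at least 5.72-fold lower than WT IgG on the all-gene scale and at least 7.29-fold lower unscaled. The all-gene fit, which took the blockade signals as they stand, gave -3.61 for Irf4 KO blockade over WT IgG (log2, limma, adjusted p = 0.244). In that comparison 0% of genes passed, and 2159 genes had an unadjusted p under 0.05 (limma).

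Ccr2, the receptor for Ccl2, is best known for recruiting inflammatory monocytes and is also found on effector T cells. Its signal was 3.39 and 4.36 intensity units on Irf4 KO blockade arrays, neither well above background, and 93.6 and 127 on Irf4 KO IgG arrays, against 4.87 and 47.4 on WT IgG arrays, of which only array 2 was well above background. The Irf4 KO IgG arrays were above all others, and the WT IgG arrays differed widely from each other. By its bound Irf4 KO blockade was at least 2.13-fold lower than Irf4 KO IgG on the all-gene scale and at least 6.25-fold lower unscaled, and the bounds were not tested. Ccr2 entered the all-gene fit only through the Irf4 KO IgG arrays, the group where it was highest. Its p-values in that fit are thus no separate support for a difference. The fit took the blockade signals as they stand and gave -3.27 for Irf4 KO blockade over Irf4 KO IgG (log2, SE 0.96, limma, adjusted p = 0.0351). In that comparison 58.8% of the genes in the fit passed. Leaving out any 1 of those 4 arrays ended that call (adjusted p of 0.0801 to 0.135). Irf4 KO IgG over WT IgG was 1.64 on the log2 scale, with a 95% interval of -0.81 to 4.09 (limma, adjusted p = 0.192). It was 3.07 (adjusted p = 0.0334) without WT IgG array 2 and 0.21 (adjusted p = 0.733) without WT IgG array 1.

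Monocyte, macrophage and neutrophil markers were set beside Ccr2. Of 11 such genes, 7 were well above background on each Irf4 KO blockade array and 10 or 11 on the Irf4 KO IgG arrays, against 7 on each WT IgG array, and their summed signal was 10976 to 11893, 22983 to 76547 and 10492 to 17226 intensity units in the same groups. The highest sum, on Irf4 KO IgG array 2, was mostly from S100a8 and S100a9, at 15377 and 44805. On array 1 of that group they gave 490 and 1333. Only in Irf4 KO IgG samples were Lyz2, Cd14 and Fcgr3 well above background, on each of the 2 arrays, whereas Csf1r, the receptor that defines the monocyte lineage, gave 1057 and 992 intensity units on Irf4 KO blockade arrays and 1296 and 1177 on Irf4 KO IgG arrays, against 1230 and 932 on WT IgG arrays. None of the 5 tested in the bright-gene fit passed in any comparison (limma; 1 had an unadjusted p under 0.05 for Irf4 KO IgG over WT IgG and 0 in the other comparisons). Over the whole array, 0.517% of the 31515 probes not well above background on either WT IgG array were so on both Irf4 KO blockade arrays and 38.3% on both Irf4 KO IgG arrays, so a gain of detected markers was not particular to these genes. The markers' part in the Ccr2 result was not tested. Fewer cells of a type and less RNA per cell cannot be told apart in RNA from a bulk sort.

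Promoters of Cxcr3, Cxcr6 and Ccr4 are shown. These 3 were the receptors whose probes were lower on every Irf4 KO array than on every WT IgG array on unscaled signal. On the all-gene scale this also held for S1pr1 and Gpr183. The sequences are the 250 bases before the annotated RefSeq start in GRCm38.p6, written 5′ to 3′ on the gene's strand, and capitals mark motif matches. Windows reaching 50 bases past the start were searched, and 7 of the 9 receptors had one.
Cxcr3 promoter (chrX:101734148-101734397, minus strand): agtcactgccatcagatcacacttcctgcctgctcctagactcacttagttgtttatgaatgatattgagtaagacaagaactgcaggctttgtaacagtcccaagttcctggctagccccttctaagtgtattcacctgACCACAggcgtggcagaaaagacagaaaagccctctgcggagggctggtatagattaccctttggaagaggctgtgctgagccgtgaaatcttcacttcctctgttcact
Cxcr6 promoter (chr9:123806227-123806476, plus strand): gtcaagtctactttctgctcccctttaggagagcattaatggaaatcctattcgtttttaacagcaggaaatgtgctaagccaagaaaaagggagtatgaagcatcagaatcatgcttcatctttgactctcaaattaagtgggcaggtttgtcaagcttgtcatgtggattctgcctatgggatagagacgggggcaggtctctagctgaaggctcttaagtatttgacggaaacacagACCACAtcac
Ccr4 promoter (chr9:114496545-114496794, minus strand): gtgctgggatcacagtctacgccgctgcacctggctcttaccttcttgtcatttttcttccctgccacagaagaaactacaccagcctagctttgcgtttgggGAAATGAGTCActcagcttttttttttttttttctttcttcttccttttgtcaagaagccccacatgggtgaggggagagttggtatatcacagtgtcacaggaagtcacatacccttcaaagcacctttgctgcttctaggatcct
The Ccr4 promoter held a match to an AP-1 motif (TGANTCA) inside a match to an adjoining composite, in which the IRF letters GAAA stand directly before the AP-1 letters, beginning at position -147 from the start. AP-1 and Irf4 are known to bind DNA jointly at such composites, as background. Of 32851 RefSeq promoter windows, 7.81% held the AP-1 motif and 0.125% the adjoining composite on either strand. The Cxcr3 and Cxcr6 promoters held a RUNX motif (TGTGGT, shown on the other strand as its complement ACCACA), which 16.8% of windows held, and the Cxcr3 window held a second match 11 bases past the start. Neither the tandem IRF motif (GAAA repeated after a gap of 2 bases, 3.44% of windows), the spaced composite of both factors (TTTC, a gap of 4 bases, then TGANTCA, 0.119%), the T-box motif (AGGTGTGA, 1.28%) nor the KLF motif (CCACACCC, 3.56%) was found in the 7 windows. A match is a description of letters and not a bound site.

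**Figure D2:**
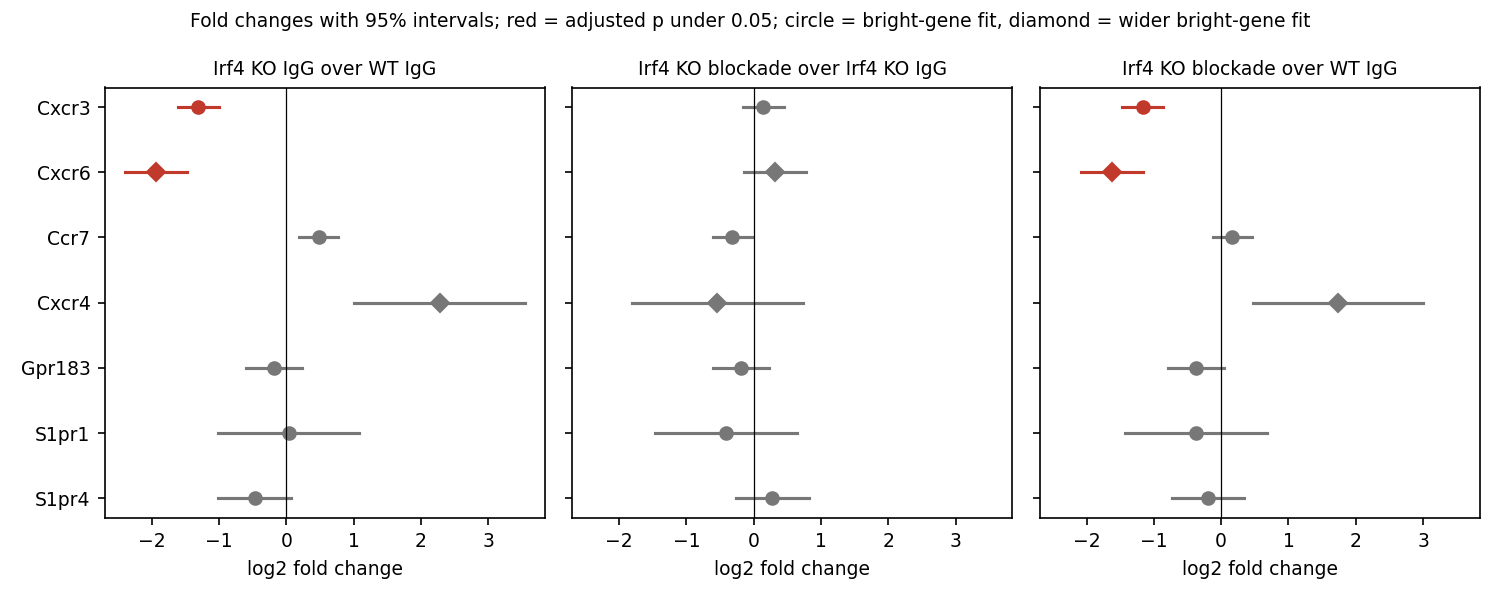
Log2 fold changes with 95% intervals (limma) for the 7 receptors of the bright-gene fit (circles) and the wider bright-gene fit (diamonds), in the 3 comparisons. Red marks an adjusted p under 0.05: Cxcr3 and Cxcr6 lie left of 0 in both comparisons with WT IgG, and no receptor is red between Irf4 KO blockade and Irf4 KO IgG.

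Ccr7 binds Ccl19 and Ccl21 and brings naive and central memory T cells into the T cell zones of lymphoid organs. It gave 17114 and 14291 intensity units on Irf4 KO blockade arrays and 17969 and 24997 on Irf4 KO IgG arrays, against 15263 and 18584 on WT IgG arrays. A second probe gave 3876 and 2865 on Irf4 KO blockade arrays and 3977 and 6188 on Irf4 KO IgG arrays, against 3047 and 3463 on WT IgG arrays. On this unscaled signal the Irf4 KO blockade and WT IgG arrays overlapped with both probes. After normalisation in the bright-gene fit the brighter probe did not overlap, at log2 levels of 14.06 and 14.07 against 13.91 on each WT IgG array. In the bright-gene fit Irf4 KO IgG over WT IgG was 0.48 (95% interval 0.19 to 0.77, limma, adjusted p = 0.0990) and Irf4 KO blockade over WT IgG was 0.16 (-0.13 to 0.45, adjusted p = 0.509). The difference of Irf4 KO blockade over Irf4 KO IgG was -0.32 (-0.61 to -0.03, limma, adjusted p = 0.154). The sign of both comparisons with Irf4 KO IgG turned on the all-gene scale, at -0.87 (adjusted p = 0.0289) for Irf4 KO IgG over WT IgG and 1.11 (adjusted p = 0.0153) for Irf4 KO blockade over Irf4 KO IgG, close to the bright-gene shifts of -1.05 and 1.09.

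Cxcr4, the receptor for Cxcl12, holds cells in bone marrow and positions them in lymphoid tissue. Its brighter probe gave 282 and 225 intensity units on Irf4 KO blockade arrays and 311 and 1257 on Irf4 KO IgG arrays, against 87.4 and 90.0 on WT IgG arrays. The second probe gave 56.3 and 30.4 on Irf4 KO blockade arrays and 55.1 and 188 on Irf4 KO IgG arrays, against 11.3 and 10.3 on WT IgG arrays, where it was not well above background. All 4 Irf4 KO arrays were above both WT IgG arrays with both probes, and Irf4 KO IgG array 2 was far above array 1. The brighter probe was under the wider fit's minimum of 128 on both WT IgG arrays, and Cxcr4 met that minimum through the Irf4 KO arrays. In the wider bright-gene fit Irf4 KO IgG over WT IgG was 2.28 (log2, SE 0.50, 95% interval 1.01 to 3.54) and did not pass (limma, adjusted p = 0.0822). For Irf4 KO blockade over WT IgG it was 1.74 (SE 0.50, 95% interval 0.47 to 3.01, limma, adjusted p = 0.186).

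On the all-gene scale Cxcr4 passed for Irf4 KO IgG over WT IgG, at 1.62 (SE 0.48, limma, adjusted p = 0.0364), a call that with 1 array left out held only where that was Irf4 KO IgG array 1 (adjusted p of 0.0255, and of 0.0631 to 0.136 without any of the others), and not for Irf4 KO blockade over WT IgG, at 1.86 (adjusted p = 0.450). By its bound the second probe was at least 2.33-fold higher in Irf4 KO IgG and at least 2.78-fold higher in Irf4 KO blockade than in WT IgG cells on the all-gene scale, and at least 5.37-fold and 2.18-fold unscaled. The 95% interval of Irf4 KO blockade over Irf4 KO IgG ran from -1.81 to 0.73 around -0.54 in the wider fit (limma, adjusted p = 0.505), and the value was 0.24 on the all-gene scale. Within the slide rows of the wider fit Irf4 KO IgG over WT IgG was 3.28 and 1.27. Without Irf4 KO IgG array 1 the difference from WT IgG was 3.12 (limma, adjusted p = 0.0182), and without array 2 it was 1.53 (adjusted p = 0.0673). Irf4 KO blockade over WT IgG passed without either of them (1.78 with an adjusted p of 0.0425 without array 1, and 1.77 with 0.0439 without array 2, limma).

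B cell markers, from cells that also express Cxcr4, were highest on Irf4 KO IgG array 2. Their summed signal over 8 genes was 373 and 383 intensity units on Irf4 KO blockade arrays and 1069 and 5748 on Irf4 KO IgG arrays, against 203 and 223 on WT IgG arrays. Of the 8, 2 or 3 were well above background on Irf4 KO blockade arrays and 7 or 8 on Irf4 KO IgG arrays, against 2 or 3 on WT IgG arrays, beside the array-wide gain of 38.3% given above. Erythroid and platelet markers summed to 11288 and 6952 on Irf4 KO blockade arrays and 1551 and 54403 on Irf4 KO IgG arrays, against 183 and 755 on WT IgG arrays. The part of either in the Cxcr4 result was not tested. Both sums were also higher on the Irf4 KO blockade than on the WT IgG arrays. For the B cell markers 1 gene, Cd79b, made up most of the blockade sum, at 267 and 275 against 43.7 and 51.8 on WT IgG arrays. Cd22 was lower on the blockade arrays, at 61.4 and 34.0 against 102 and 110, so the higher sum was not a gain of the list as a whole.

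Gpr183, also called EBI2, is an oxysterol receptor that places activated cells at the border of B and T cell zones. It gave 766 and 612 intensity units on Irf4 KO blockade arrays and 818 and 1667 on Irf4 KO IgG arrays, against 953 and 1317 on WT IgG arrays. On this unscaled signal the Irf4 KO blockade arrays were below all others, and the Irf4 KO IgG arrays spanned the WT IgG ones. After normalisation in the bright-gene fit Irf4 KO IgG array 1, at a log2 level of 9.69, was below both Irf4 KO blockade arrays, at 9.71 and 9.75. Irf4 KO IgG over WT IgG was -0.18 (95% interval -0.60 to 0.24, limma, adjusted p = 0.553), Irf4 KO blockade over WT IgG was -0.37 (-0.79 to 0.05, adjusted p = 0.310) and Irf4 KO blockade over Irf4 KO IgG was -0.19 (-0.61 to 0.23, adjusted p = 0.485). On the all-gene scale the first was -1.14 (adjusted p = 0.0152) and the last 0.78 (adjusted p = 0.0399), both beside the bright-gene shifts of that scale.

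S1pr1 is the sphingosine-1-phosphate receptor through which T cells leave lymphoid organs. It gave 2678 and 2216 intensity units on Irf4 KO blockade arrays and 5182 and 3370 on Irf4 KO IgG arrays, against 3695 and 4247 on WT IgG arrays. On this unscaled signal the Irf4 KO blockade arrays were below all others, and the Irf4 KO IgG arrays lay on either side of the WT IgG arrays. After normalisation Irf4 KO IgG array 2, at 11.22, was below both Irf4 KO blockade arrays, at 11.47 and 11.52. Normalised levels were 11.49 ± 0.04 in Irf4 KO blockade and 11.90 ± 0.97 in Irf4 KO IgG cells, against 11.87 ± 0.13 in WT IgG cells (log2, SD, n = 2 each). The difference of Irf4 KO blockade over Irf4 KO IgG was -0.41 (95% interval -1.46 to 0.64, limma, adjusted p = 0.541) and Irf4 KO blockade over WT IgG was -0.38 (-1.43 to 0.68, adjusted p = 0.673). For Irf4 KO IgG over WT IgG it was 0.03, with an interval of -1.02 to 1.09 (limma, adjusted p = 0.971). Without Irf4 KO IgG array 2 Irf4 KO blockade over Irf4 KO IgG was -1.12 and passed (limma, adjusted p = 0.0415), and without array 1 it was 0.28 (adjusted p = 0.322), so the Irf4 KO IgG level of S1pr1 was not settled by these arrays.

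S1pr4, a lymphocyte receptor for the same lipid, gave 481 and 476 intensity units on Irf4 KO blockade arrays and 599 and 656 on Irf4 KO IgG arrays, against 613 and 777 on WT IgG arrays. The Irf4 KO blockade arrays were the lowest on this unscaled signal and the other groups overlapped. In the bright-gene fit Irf4 KO IgG array 2, at a log2 level of 8.70, was below both Irf4 KO blockade arrays, at 9.04 and 9.41. After normalisation Irf4 KO IgG over WT IgG was -0.47 (95% interval -1.01 to 0.07, limma, adjusted p = 0.266) and Irf4 KO blockade over WT IgG was -0.20 (-0.74 to 0.34, adjusted p = 0.669). Irf4 KO blockade over Irf4 KO IgG was 0.27 (-0.27 to 0.81, limma, adjusted p = 0.431). These intervals still include differences larger than 0.5 on the log2 scale. The all-gene fit called S1pr4 for Irf4 KO IgG over WT IgG, at -1.34 (limma, adjusted p = 0.0194), and for Irf4 KO blockade over Irf4 KO IgG, at 1.16 (adjusted p = 0.0281), beside that scale's bright-gene shifts.

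In the bright-gene fit the 2 groups did not overlap for 3 of the 5 receptors between Irf4 KO IgG and WT IgG, where 52.3% of all genes did not overlap. For Irf4 KO blockade against WT IgG this held for 4 of 5 receptors and 54.8% of genes, and for Irf4 KO blockade against Irf4 KO IgG for 1 of 5 and 62.8%. On the all-gene scale 9 of 9 receptors and 81.2% of genes did not overlap between Irf4 KO IgG and WT IgG, 7 of 9 and 35.6% between Irf4 KO blockade and WT IgG, and 8 of 9 and 82.9% between Irf4 KO blockade and Irf4 KO IgG. With 2 arrays a group, separation of this kind was frequent among all genes.

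Dividing each receptor by Ccr7 on the same array gives a measure that dividing an array by any single number cannot move; quantile normalisation can. Relative to the mean of the WT IgG arrays, the log2 ratio of Cxcr3 to Ccr7 was -1.28 and -1.50 on Irf4 KO blockade arrays and -1.84 and -1.57 on Irf4 KO IgG arrays. The ratio of Cxcr6 to Ccr7 was -1.58 and -2.32 on Irf4 KO blockade arrays and -1.81 and -1.61 on Irf4 KO IgG arrays. Both graft-homing receptors were thus lower relative to Ccr7 on all 4 Irf4 KO arrays, while the WT IgG arrays stayed within 0.07 of their mean.

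The ratio of Cxcr4 to Ccr7 was 1.64 and 1.58 on Irf4 KO blockade arrays and 1.72 and 3.26 on Irf4 KO IgG arrays, above the WT IgG arrays at 0.12 and -0.12. For S1pr1 it was -0.59 and -0.60 on Irf4 KO blockade arrays and 0.29 and -0.80 on Irf4 KO IgG arrays, against 0.04 and -0.04 on WT IgG arrays. S1pr4 and Gpr183 lay between -0.64 and 0.0038 relative to Ccr7 on the 4 Irf4 KO arrays. These ratios show unequal change of 2 genes on an array and not which of them changed, and they were not tested. They also set weaker probes against a bright one: on WT IgG arrays Cxcr4 gave 87.4 and 90.0 intensity units and Ccr7 15263 and 18584. The greater signal of weak probes in Irf4 KO IgG samples is not removed by such a ratio.

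**Figure D3:**
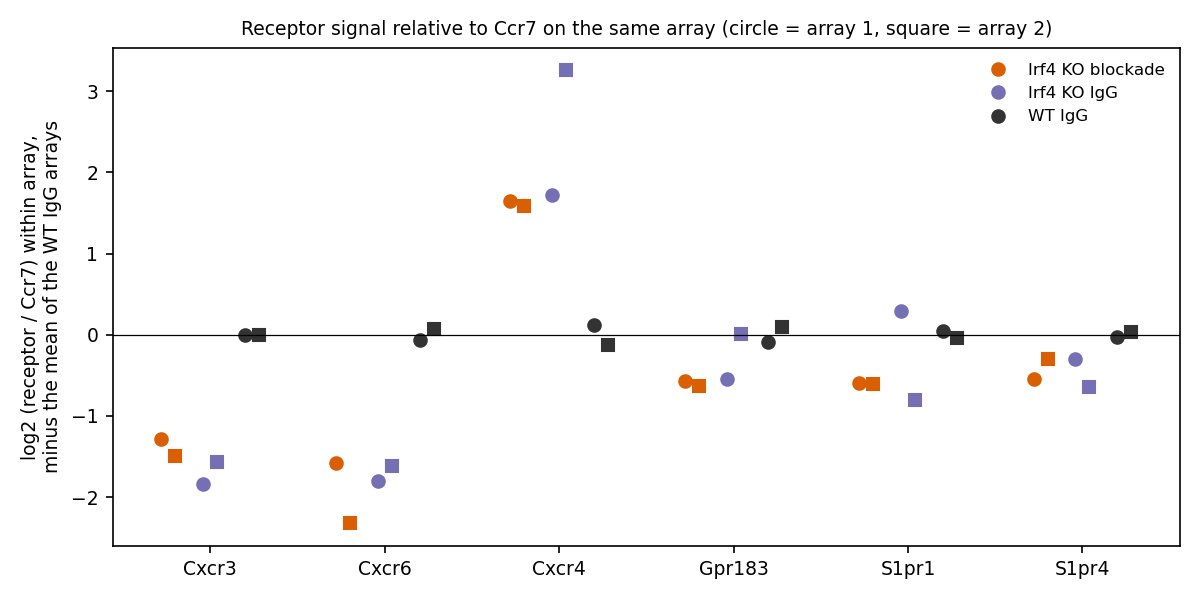
Log2 ratio of 6 receptors to Ccr7 on the same array, minus the mean of the WT IgG arrays, for Irf4 KO blockade (orange), Irf4 KO IgG (purple) and WT IgG (black) arrays. Cxcr3 and Cxcr6 lie between -2.32 and -1.28 on the Irf4 KO arrays and Cxcr4 between 1.58 and 3.26.

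The scaling of the arrays moved the comparisons with Irf4 KO IgG most. In the all-gene fit 6 of the 9 receptors were called lower and 1, Cxcr4, higher in Irf4 KO IgG than in WT IgG cells, where 27.4% of the genes in that fit were lower and 31.5% higher. For Irf4 KO blockade over Irf4 KO IgG 5 were called higher and 1, Ccr2, lower, where 27.9% of the genes in that fit were higher and 30.9% lower. None of the 9 passed for Irf4 KO blockade over WT IgG, where 0% of genes did (limma; 4 of the 9 had an unadjusted p under 0.05). On that scale the bright genes themselves shifted by -1.05 and 1.09 in the first 2 of these comparisons. The first 2 counts are therefore not read as particular to the receptors. Cxcr3 kept a negative sign in both comparisons with WT IgG under all 7 scalings plotted, as did Cxcr6 under the 3 that hold it.

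**Figure D4:**
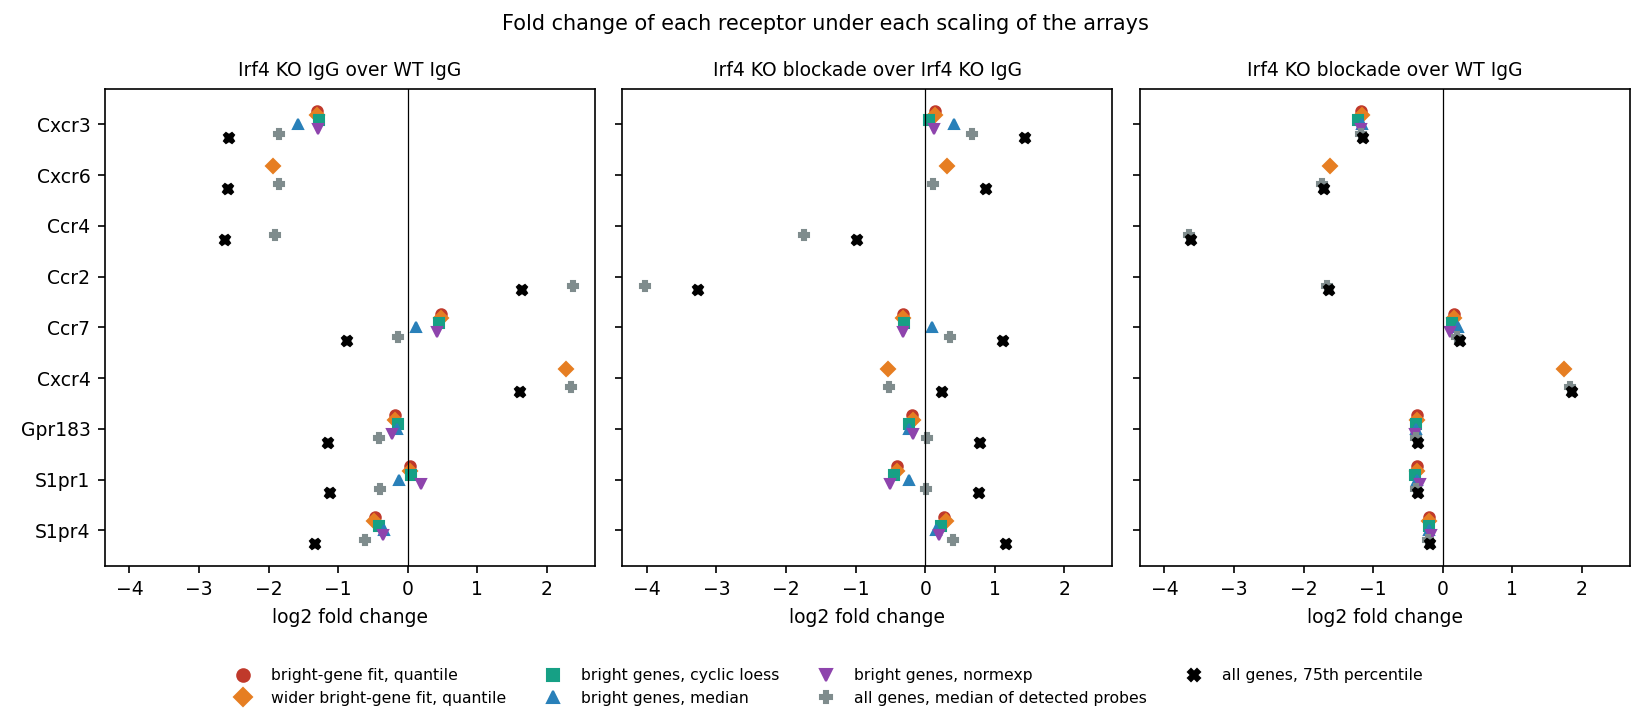
Log2 fold change of the 9 receptors in the 3 comparisons under 7 scalings of the arrays, 1 symbol per scaling; dim receptors are held by fewer scalings. Irf4 KO blockade over WT IgG hardly depends on the scaling, whereas both comparisons with Irf4 KO IgG shift for the 5 bright receptors with the all-gene scaling (black crosses).

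Among the other genes of these pathways, few were bright enough to test. Of 17 other chemokine receptors with a probe, only Cxcr5, which brings cells into B cell follicles, entered the bright-gene fit. It gave 2466 and 1807 intensity units on Irf4 KO blockade arrays and 3253 and 6397 on Irf4 KO IgG arrays, against 7774 and 11551 on WT IgG arrays. Cxcr5 was lower in Irf4 KO IgG than in WT IgG cells, at -1.07 (limma, adjusted p = 0.0471), and in Irf4 KO blockade than in WT IgG cells, at -1.81 (adjusted p = 0.0167).

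None of the 6 tested genes of the other sphingosine-1-phosphate and oxysterol genes passed in any comparison (limma; 3 had an unadjusted p under 0.05 in each comparison with WT IgG and 1 between the Irf4 KO groups). Klf2, a transcription factor that drives S1pr1, was -0.46 (adjusted p = 0.251) for Irf4 KO IgG over WT IgG and -0.62 (adjusted p = 0.196) for Irf4 KO blockade over WT IgG, and Cd69, which removes S1pr1 from the cell surface, was 1.08 (adjusted p = 0.132) and 0.74 (adjusted p = 0.274, limma) in the same comparisons. Of the chemokine ligands only Ccl5, a chemokine made by effector T cells, could be tested, at -1.75 (limma, adjusted p = 0.0819) for Irf4 KO IgG over WT IgG and -2.14 (adjusted p = 0.0764) for Irf4 KO blockade over WT IgG.

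Of 19 tested genes of receptor signalling and desensitisation, 1 passed in each comparison with WT IgG. It was Tiam1, an activator of the GTPase Rac, higher by 1.70 in Irf4 KO IgG than in WT IgG cells (limma, adjusted p = 0.0471) and by 1.95 in Irf4 KO blockade than in WT IgG cells (adjusted p = 0.0455), and called in neither in the wider bright-gene fit (adjusted p of 0.0548 and 0.0680, limma). Tiam1 gave 107 and 87.6 intensity units on WT IgG arrays, under the bright-gene minimum of 256, which it met through the Irf4 KO arrays. Its calls are thus no separate support for a difference. The list's median was -0.05 for Irf4 KO IgG over WT IgG and -0.34 for Irf4 KO blockade over WT IgG, and 0 of the 19 passed between the Irf4 KO groups (limma; 6 had an unadjusted p under 0.05). Beta-arrestin 2, encoded by Arrb2, was -0.54 (adjusted p = 0.0990) for Irf4 KO IgG over WT IgG and -0.74 (adjusted p = 0.0772, limma) for Irf4 KO blockade over WT IgG.

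Of 10 tested transcription factors linked to these receptors, 3 passed in each comparison with WT IgG, 1 of them Irf4 itself. Runx3, which promotes the cytotoxic and type 1 programmes, gave 296 and 219 intensity units on Irf4 KO blockade arrays and 475 and 723 on Irf4 KO IgG arrays, against 795 and 1172 on WT IgG arrays. It was lower at -1.04 for Irf4 KO IgG over WT IgG (limma, adjusted p = 0.0226) and -1.54 for Irf4 KO blockade over WT IgG (adjusted p = 0.00918). Eomes, a T-box factor of memory and cytotoxic cells, gave 419 and 311 on Irf4 KO blockade arrays and 690 and 1319 on Irf4 KO IgG arrays, against 69.4 and 83.6 on WT IgG arrays. Eomes was higher by 2.97 in Irf4 KO IgG cells (limma, adjusted p = 0.00603) and by 2.21 in Irf4 KO blockade cells (adjusted p = 0.00918), each over WT IgG. Its signal was under the bright-gene minimum of 256 on both WT IgG arrays, and it met that minimum through the Irf4 KO arrays. The calls of Eomes are thus no separate support for a difference. Tbx21, the T-box factor that drives Cxcr3 in type 1 cells, was -0.54 (95% interval -1.01 to -0.07, limma, adjusted p = 0.173) for Irf4 KO IgG over WT IgG and 0.14 (-0.33 to 0.61, adjusted p = 0.737) for Irf4 KO blockade over WT IgG. None of the 10 passed between the Irf4 KO groups (limma; 6 had an unadjusted p under 0.05).

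The genes whose bright-gene level followed Cxcr3 most closely over the 6 arrays were Adap1 (Pearson r = 0.998), Trib2 (0.998) and Mapre2 (0.996). For Ccr7 they were Ier5, Hbp1 and Ogfod1, for S1pr1 Tacr2, Krt222 and Pdzrn3, for S1pr4 Hps6, Dipk2a and E130304I02Rik, and for Gpr183 Sqor, Tnfrsf1b and Unc93b1. These are the 3 highest of 8582 genes over 6 arrays that share groups, slide and scan, and are given as a description. Tacr2, Krt222 and Pdzrn3 shared the high Irf4 KO IgG array 1 and low array 2 of S1pr1.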

How the data were processed

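Total RNA, 0.5 µg per sample, was labelled with Cy3 by the authors, per the labels' protocols. The deposited scanner files hold, per the file headers, a processed intensity for each spot from Feature Extraction 11.0.1.1 on a linear scale (build mm9), while version 9.1 stands in the submitters' processing notes. In the deposited value table this intensity is divided by 1 number per array, constant within 0.05 on the log2 scale, and served as an alternative.

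Control and unusable spots were left out, as were 1234 probes lacking a usable spot on some array. Log2 intensities were averaged per probe, probes were named through RefSeq accessions where these matched, and the brightest probe stood for its gene. The 3 groups were fitted together with limma 3.58.1 in R 4.3.3 (lmFit, then eBayes), leaving 3 residual degrees of freedom. P-values were adjusted by Benjamini-Hochberg over all genes of a fit, with a threshold of 0.05. The code was tested on simulated data. Arrays, not counts, were measured, and 2 arrays a group limit the precision.

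The receptors and gene lists were chosen with earlier results of these data known. All 9 receptors are named, together with Irf4, the listed genes that passed and up to 4 more per list by lowest p, and, per bright receptor, the 3 genes with the highest Pearson r among those varying at least 0.5 times as much. The alternatives tried changed the scaling, the minimum level, the background correction, the block or the arrays used; leaving out arrays in the wider and all-gene fits, and bounds on unscaled intensity, were added after seeing the data. The signal column needed for the usual background correction was not used here, so normexp with an offset of 50 was run on the median signal. Replicate numbers did not pair the arrays (correlations of deviations 0.03, -0.20 and 0.02). All arrays shared 1 slide and 1 scan. Some listed genes are not reported here.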

Additional observations from a re-analysis of the deposited data

How the results depend on the processing

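Each single-receptor value was set against a starting fit. This was the bright-gene fit where it holds the receptor, and the all-gene fit for Cxcr4, Cxcr6, Ccr2 and Ccr4. Of 396 values under another setting, 311 kept their direction and side of the threshold. A further 50 kept the direction but no longer passed, 10 newly passed and 25 turned sign. Of the 50, 13 were Cxcr6 for Irf4 KO blockade over Irf4 KO IgG and 11 were Cxcr4 for Irf4 KO IgG over WT IgG. Of the 25, 8 were Cxcr4 for Irf4 KO blockade over Irf4 KO IgG, its wider-fit value of -0.54 among them. The sign turned for Ccr7, S1pr1, Gpr183 and Cxcr4 alone, and the cause was not tested. For Irf4 KO IgG over WT IgG, Ccr7 was -0.87 on the all-gene scale and -0.14 when all genes were scaled to the median of detected probes, and S1pr1 was -1.12 and -0.40 there and -0.13 with a bright-gene median. For Irf4 KO blockade over Irf4 KO IgG the same 2 all-gene scalings gave 1.11 and 0.35 for Ccr7, 0.77 and 0.013 for S1pr1 and 0.78 and 0.023 for Gpr183; Ccr7 was 0.10 with a bright-gene median, and Cxcr4 was -0.52 with the detected-probe median, -0.54 with a minimum of 7, and -0.58, -0.53, -0.53 and -0.49 with that minimum and 1 blockade or WT IgG array left out. With 1 array left out, S1pr1 ranged from -0.66 to 0.74 and Gpr183 from -0.41 to 0.043 for Irf4 KO IgG over WT IgG, and S1pr1 from -1.12 to 0.28, Gpr183 from -0.42 to 0.036 and Cxcr4 from -1.35 to 0.90 for Irf4 KO blockade over Irf4 KO IgG.

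Receptors called for Irf4 KO IgG over WT IgG numbered 7 on the all-gene scale, 4 with the detected-probe median, 2 with a minimum of 7, 0 with only the 4 compared arrays, and 0 to 1 with 1 array left out. Between the Irf4 KO groups they numbered 6, then 1, and 0 to 1 with 1 array left out. For Irf4 KO blockade over WT IgG they numbered 0 on both all-gene scales, 2 with a minimum of 7, 0 with slide row as a block, and 0 to 1 with 1 array left out. Of all genes, the 160 called for Irf4 KO IgG over WT IgG became 271 with a bright-gene median, 16644 and 11541 on the all-gene scales, 269 and 94 with minima of 7 and 9, 246 over every bright probe, 88 with slide row as a block and 6 with only the 4 compared arrays, and 6 to 102 with 1 array left out. The 28 called between the Irf4 KO groups became 630, 16612 and 12348 on those first 3 scalings, 56 with normexp, 63 with a minimum of 7, 92 over every bright probe, 0 with slide row as a block (limma), and 0 to 318 with 1 array left out. The 95 called for Irf4 KO blockade over WT IgG became 0 on both all-gene scales and 32 with slide row as a block, and 0 to 111 with 1 array left out.

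With replicate number as a block, which the data gave no reason to read as pairing, 0 receptors were called in all 3 comparisons, Cxcr3 had adjusted p of 0.0520 and 0.0585 (limma) against WT IgG in Irf4 KO IgG and Irf4 KO blockade cells, and 23 and 54 genes were called in those comparisons. Leave-one-out fits leave 1 group with a single array, assumed to vary like the others. Dim probes are limited by background: Ccr2 and Ccr4 were not well above it on the Irf4 KO blockade arrays.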
